A study of Mus musculus with 244 samples.

Results

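The somatic cells of primary follicles are the cells that were detached from mouse follicles whose oocyte was enclosed by a complete layer of cuboidal granulosa cells. They were chosen by their titles, which give a somatic cell of a primary follicle and not of one in transition, and there were 56 of them. The rest of the series held 40 somatic cells of primordial, 47 of transitioning and 42 of secondary follicles and 59 oocytes. The libraries were made on plates, with 5 of these cells on plate 1, 32 on plate 2 and 19 on plate 5. Cells are numbered here as in the labels.

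Ovaries of outbred CD-1 mice were taken on postnatal day 6 and pooled to isolate the follicles, and no gene was altered in them. Primary follicles were held in Accutase, an enzyme mix that loosens cell contacts, for 10 min per the labels and were then drawn through a 30 μm glass pipette, so that single cells could be picked by hand. Each cell became 1 SMART-Seq2 library, which covers transcripts over their full length and has no molecular identifiers. No label names the animal or the day of collection, so the cells are not replicates of a condition, no p-value is given, and every correlation over cells is a description.

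Granulosa cells surround the oocyte, pass nutrients to it through gap junctions and, as the follicle grows, make the inhibin and activin subunits, anti-Müllerian hormone and enzymes of steroid synthesis. In the primary follicle they have changed from a flat to a cuboidal shape and begin to divide. The stroma lies outside the follicle's basal lamina and makes fibrillar collagens, and dissociation of a tissue by enzymes is known to switch on immediate early and heat shock genes.

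The total of the estimated counts per cell ran from 94646 to 409310 on plate 1, from 5150 to 332717 on plate 2 and from 14249 to 116570 on plate 5, with medians of 361900, 100363 and 37971. The median number of genes with reads was 2955, 1548 and 1630. Each plate lists its own genes, 15672 on plate 2 and 16710 on plate 5 with 14216 in common, so that levels are given as CPM, counts scaled to a total of 1000000 over the named genes listed for that plate, and are read within a plate unless the text says otherwise. All intervals are at 95% and cover counting error only.

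Of the 56 cells, 8 stood apart from the others and are described first. The authors' deposited clustering puts cells 7, 17, 21, 25 and 30 of plate 2 and cells 38, 45 and 53 of plate 5 in its cluster 0, a cluster that also holds oocytes and, among somatic cells of other stages, 5 primordial and 2 secondary cells of plate 5 and 11 secondary cells and 1 transitioning cell of plate 6. The 8 cells had reads of 6 to 8 of the listed stroma markers set as defining, and the others of their plates had 0 to 3 on plate 2 and 0 or 1 on plate 5. Counts on stroma genes made up 5.84 to 9.86% of the counts in these cells on plate 2 and 0.891 to 6.03% on plate 5. In the other 27 cells of plate 2 the stroma share lay between 0.142 and 1.49%, and in the other 16 of plate 5 between 0 and 0.0553%. These 2 ranges rest on different members. Sparc, listed on plate 2 and not on plate 5, was read in all of the 27 cells and reached 14893 CPM. The clustering was made from the same RNA, so these values describe the 8 cells and test nothing. Results below are given with and without them. In plate 5, 2 of the 3 also had few reads aligned, 38.6% in cell 45 and 31.5% in cell 53 against at least 66.9% in every other cell of that plate, and the part of this in their profiles was not tested.

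The 4 granulosa markers were found in the cells outside cluster 0. Reads of all 4 genes were present in 18 of 27 such cells on plate 2, 10 of 16 on plate 5 and 4 of 5 on plate 1, and every other one of these cells had reads of 2 or 3 of them. In the 8 cells the picture was reversed, since 4 of the 5 on plate 2 had reads of none of the markers and the 3 on plate 5 had reads of Foxl2 alone. At least 2 of the markers were thus read in each of the 48 cells outside cluster 0. Of the 8 cells, 7 had reads of none or of Foxl2 alone, and cell 7 had both granulosa and stroma genes. The titles name a somatic cell and do not say granulosa cell.

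Inha encodes the alpha subunit shared by the inhibins and lies at chr1:75507077-75510366 on the plus strand of GRCm38. Its level was 0 CPM in the lowest, 17385 in the median and 46811 in the highest cell of plate 2, and 0, 15879 and 29347 CPM in the same order on plate 5. Pooled over the cells it was 17285 CPM (17148 to 17424) on plate 2, 18517 CPM (18216 to 18822) on plate 5 and 9172 CPM (9011 to 9336) on plate 1. All zeros were in cluster 0. Without it, Inha was read in 27 of 27 cells of plate 2, between 7896 and 46811 CPM, and in 16 of 16 cells of plate 5, between 10002 and 29347 CPM. Cell 7 was the only cell of cluster 0 with reads of Inha, at 6582 CPM, below the lowest of the 27.

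Amh, the gene for anti-Müllerian hormone, at chr10:80805243-80807648 on the plus strand, had the largest difference between plates 2 and 5 of the 4 markers. On plate 2 it ran from 0 CPM over a median of 128.3 to 1478 CPM, with reads in 27 of 32 cells, and on plate 5 from 0 over 1319.8 to 8519.7 CPM, with reads in 16 of 19. On plate 1 the lowest, median and highest of the 5 cells were 7.33, 466 and 1230.2 CPM. The pooled level was 204.5 CPM (189.7 to 220.03) on plate 2, 2399 CPM (2292 to 2510.5) on plate 5 and 312 CPM (283 to 343) on plate 1. Outside cluster 0, cells of plate 2 held 0 to 1478 CPM with a median of 158.5 and those of plate 5 held 255 to 8519.7 CPM with a median of 2695, so the ranges of the plates overlapped.

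Foxl2, the transcription factor that keeps the granulosa fate, at chr9:98955288-98958543, had reads in 23 of 32 cells of plate 2 and 18 of 19 cells of plate 5. Its lowest, median and highest levels were 0, 118.8 and 1359 CPM on plate 2 and 0, 237.02 and 1670.3 CPM on plate 5. Inhbb, the beta B subunit of inhibin and activin, at chr1:119415465-119422248 on the minus strand, had reads in 22 of 32 and 11 of 19 cells. Its median was 372 CPM on plate 2 and 437 CPM on plate 5, with highest values of 2504 and 1689 CPM. None of the 8 cells had reads of Inhbb, and on plate 5 all 3 had reads of Foxl2, between 70.2 and 173.6 CPM.

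**Figure D1:**
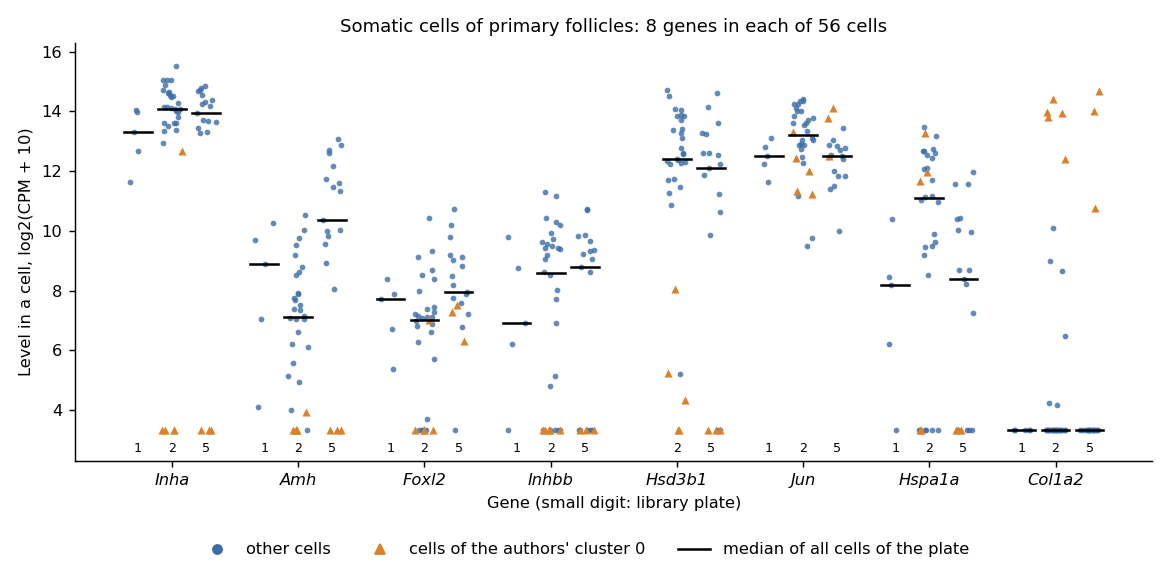
Level of 8 genes in each of the 56 cells as log2(CPM + 10), with the library plate given by the small digit, 1 point per cell, triangles for the 8 cells of cluster 0 and a line at the median. Hsd3b1 is not listed on plate 1. The triangles lie at the bottom for Inha, Amh and Inhbb, with cell 7 above them for Inha, and at the top for Col1a2, whose other cells reach at most 1081 CPM.

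The wider granulosa list had 30 of its 43 members listed on plate 2, all 30 with reads and 20 of them in at least 50% of the cells. On plate 5, 26 were listed, 25 had reads and 15 were read in at least 50% of the cells. Over all genes of the plates, 7.38% on plate 2 and 6.68% on plate 5 were read in that many cells. The list held 4.83% of a cell's counts in the median on plate 2 (0.453 to 10.6%) and 3.96% on plate 5 (0.219 to 5.66%). Outside cluster 0 the lowest cell had 2.50% on plate 2 and 3.09% on plate 5, and the highest of the 8 cells had 2.58% and 1.17%.

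Among the transcription factors and receptors of granulosa cells, Gata4 was pooled at 1438 CPM on plate 2 and read in 29 of 32 cells, 4 of them in cluster 0. Wt1, listed on plate 5 alone of these 2 plates, was at 906 CPM there and read in 16 of 19 cells. Nr5a1, which encodes SF-1, was at 347 CPM on plate 2 and 565 CPM on plate 5, and Nr5a2, which encodes its relative LRH-1, at 583 CPM on plate 2. Esr2, the estrogen receptor beta of granulosa cells, was at 979 and 1174 CPM, with reads in 27 of 32 and 13 of 19 cells. Amhr2, the receptor of anti-Müllerian hormone, was at 1659 CPM on plate 2, in 28 of 32 cells. The receptor of follicle-stimulating hormone, Fshr, was sparse, with reads in 8 of 32 cells on plate 2 and 5 of 19 on plate 5, at pooled levels of 44.1 and 164.2 CPM.

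Genes of contact, signals and metabolism were mostly read widely. Gja1, the connexin of granulosa gap junctions, was read in 31 of 32 cells of plate 2, from 0 over a median of 5430.5 to 19838 CPM. Wnt6, a secreted ligand, was at 909.5 CPM on plate 2 (27 of 32 cells) and 665 CPM on plate 5 (17 of 19). Slc18a2, a vesicular monoamine transporter, reached 3680.2 and 5120.4 CPM in 28 and 16 cells. Aldh1a1, which makes retinoic acid, was at 2443 and 853 CPM. Genes of later steps of follicle growth were read in few cells: Cyp19a1, the aromatase, in 9 of 32 on plate 2 at 124.6 CPM, Inhba in 10 of 32, and Ihh, the hedgehog ligand of granulosa cells, in 1 of 32 on plate 2 and 7 of 19 on plate 5, at 2.58 CPM (1.18 to 4.89) and 228.4 CPM (196.05 to 264).

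The most expressed genes of both plates included Inha, mitochondrial and ribosomal protein genes, Jun and the steroid enzyme gene Hsd3b1. The 20 highest genes took 24.7% of the counts on plate 2 and 14.0% on plate 5. On plate 5 Inha was first, and on plate 2 it took rank 4, after the predicted gene Gm10800, mt-Co1 and mt-Atp6. Gm10800 was carried by few cells, from 3.01 CPM over a median of 1883 to 379490 CPM in cell 14, and its pooled level of 40103 CPM rests on such cells.

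Hsd3b1, a 3 beta-hydroxysteroid dehydrogenase that makes progesterone from pregnenolone, stood among the 20 on both plates, at 7649.8 CPM on plate 2 and 7286 CPM on plate 5. Outside cluster 0 it was read in 27 of 27 cells of plate 2, from 27.02 over 6194 to 26959.6 CPM, and in 14 of 16 of plate 5, from 0 over 5426 to 24972 CPM. The spread within a plate thus reached from few reads to levels near those of Inha. In the 5 cells of cluster 0 on plate 2 it reached at most 257 CPM, and the 3 on plate 5 had no read of it.

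Other highly expressed genes of plate 2 were Akr1cl, an aldo-keto reductase gene, at 13083 CPM, Jun at 9287 CPM, Gja1, Fth1, which stores iron, and Sparc, a matrix protein, at 6114 CPM and with reads in all 32 cells. Plate 5 had Nedd4, a ubiquitin ligase, at 9263 CPM, Hspa5, the main chaperone of the endoplasmic reticulum, at 6774 CPM in all 19 cells, Tenm4, Jun at 5974 CPM, Slc18a2 and Scd2, a fatty acid desaturase. Because full-length libraries give more reads to longer transcripts, levels of different genes were compared per kilobase of exon. On that scale Inha took rank 6 on plate 2, at 11719 CPM per kb, and rank 1 on plate 5, at 12554 CPM per kb. Akr1cl then took rank 17 on plate 2, and Nedd4 and Tenm4 took ranks 42 and 150 on plate 5.

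Of the theca and steroid list, Hsd3b1 was the main source of counts, and it is also known in granulosa cells. Its defining theca members were at or near 0. Insl3 and Lhcgr had no read on either plate, Cyp17a1 had reads in 1 of 32 cells and 0 of 19, and Cyp11a1 in 0 and 1 cells. Star, the cholesterol carrier, was read in 5 of 32 and 5 of 19 cells.

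Immediate early and heat shock genes made up a varying part of the counts. The immediate early list, whose genes respond to stimuli within minutes, held 0.285% in the lowest, 2.38% in the median and 5.77% in the highest cell of plate 2, and 0.128, 1.51 and 6.25% on plate 5. Of its listed members, 9 of 21 on plate 2 and 11 of 25 on plate 5 were read in at least 50% of the cells. Jun was read in every cell, at 704 to 21770.2 CPM on plate 2 with a median of 9534 and 1021 to 17885 CPM on plate 5 with a median of 5844. Ier2 followed, in 32 of 32 and 18 of 19 cells, with medians of 2811 and 2643 CPM.

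The 8 cells lay in the upper part of the immediate early share, at 2.48 to 5.77% on plate 2 and 2.38 to 6.25% on plate 5, and the other cells reached 3.90% and 2.77%. Leaving them out moved the median from 2.38 to 2.22% on plate 2 and from 1.51 to 1.43% on plate 5. The members did not all share this shift. Nr4a1, an orphan nuclear receptor, was at 5697 to 25664 CPM in the 5 cells of plate 2, with the other 27 between 0 and 6619 CPM, while Jun was at 2390.4 to 10182 CPM in the 5 and had a median of 11810.1 CPM in the 27. On plate 5 Jun was at 5755 to 17885 CPM in the 3 cells, and the other 16 had a median of 5749 CPM. On plate 5, Dusp1, a phosphatase that acts on MAP kinases, was at 2877 to 5734 CPM in the 3 cells, with the other 16 between 0 and 2974 CPM. Fosb, a partner of Jun, ran there from 0 over 1818 to 16438 CPM, with its highest value in cluster 0.

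The heat shock list had 5 of its 18 members listed on plate 2 and 10 on plate 5, and all of them had reads. Its share was 0.00153% in the lowest, 0.712% in the median and 2.64% in the highest cell of plate 2, and 0.220, 0.540 and 1.44% on plate 5. Hsp90aa1, a general chaperone, was even on plate 5, with 866 to 3596 CPM in all 19 cells. Hspa1a, the inducible HSP70, was not. It ran from 0 over 2173 to 11429 CPM on plate 2, with reads in 24 of 32 cells, and from 0 over 325 to 3969 CPM on plate 5, with reads in 12 of 19. Its near-identical neighbour Hspa1b ran from 0 over 2292 to 11924 CPM and from 0 over 341 to 5591 CPM.

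The levels of Hspa1a and Hspa1b followed each other over cells, with Spearman rho 0.97 on plate 2 (27 cells) and 0.92 on plate 5 (16 cells) without cluster 0. The genes are so alike that reads of one may have been given to the other, so their levels and this correlation are uncertain. Their likeness extends to the promoter. Over the 250 bases before the start of each, 247 are identical (98.8%), and 99.3% of the 150 bases next to the start are. The stretches are shown because they carry the same heat shock element, in capitals, from RefSeq on GRCm38.p6, 5′ to 3′ on the strand of the gene, with Hspa1a at chr17:34972157-34972306 and Hspa1b at chr17:34959239-34959388, both on the minus strand.
Hspa1a: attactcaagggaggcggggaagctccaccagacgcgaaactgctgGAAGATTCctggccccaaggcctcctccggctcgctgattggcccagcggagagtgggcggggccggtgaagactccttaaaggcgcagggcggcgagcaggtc
Hspa1b: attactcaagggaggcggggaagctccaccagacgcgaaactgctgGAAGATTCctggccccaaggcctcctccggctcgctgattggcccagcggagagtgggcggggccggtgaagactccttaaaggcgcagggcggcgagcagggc
The capitals mark the motif GAANNTTC, in which N is any base and which reads the same on both strands, ending 97 bases before the start. Of all 32851 promoters in the table, 7.86% hold this motif. It was found in 6 of the 9 heat shock members with an entry, namely Hspa1a, Hspa1b, Hspe1, Bag3, Chordc1 and Hspb1, in 1 of 20 immediate early members (Jun), in 2 of 25 granulosa members (Inhbb and Nr5a2), in 1 of 11 G2/M members (Birc5) and in 0 of 10 stroma members. The cAMP response element TGACGTCA, found in 1.79% of all promoters, was found in Btg2, Dusp1 and Maff among the immediate early members. Slc18a2 of the granulosa and Ndc80 of the G2/M members held it too. The CArG box was found in Egr2 and Zfp36 of the 20 immediate early members, in Ckap2l of the G2/M members and in 1.63% of all promoters. The SF-1 site CAAGGTCA, in 1.56% of all, was found in Amhr2 alone of the granulosa members, and TATAAA, in 13.6% of all, in 5 of the 25. TATAAA was also found in 3 of 10 stroma, 3 of 20 immediate early, 1 of 9 heat shock and 0 of 11 G2/M members. The windows searched reach past the start. Counted from it, the heat shock element of Bag3 begins at base 42 and those of Chordc1 at bases -4 and 6. A match is only a run of letters in these windows.

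**Figure D2:**
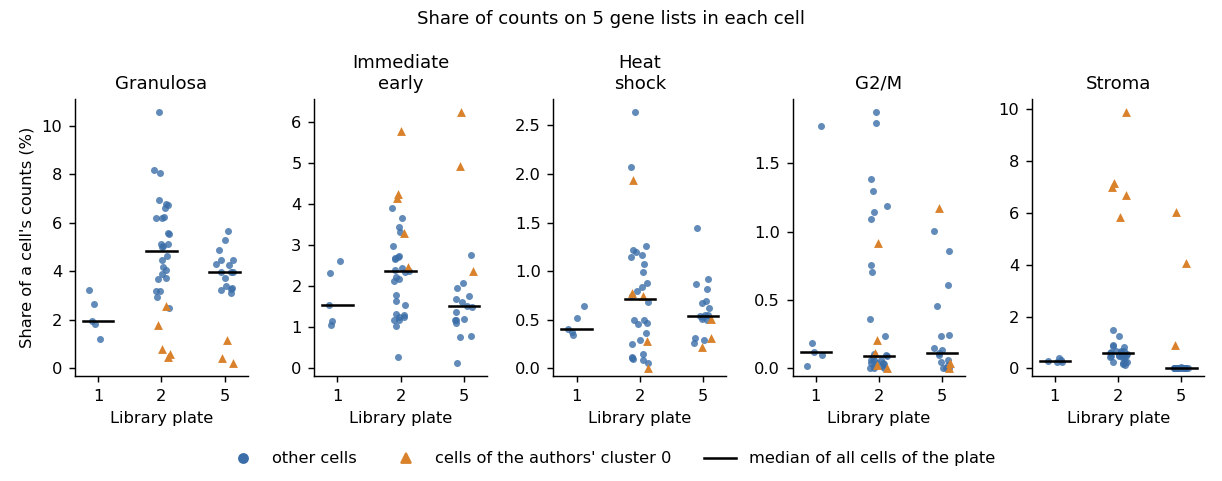
Share of a cell's counts, in percent, on the genes of 5 lists listed for its plate, with 1 point per cell, triangles for the 8 cells of cluster 0 and a line at the median of all cells of the plate. On plate 2 the triangles lie at 5.84 to 9.86% for stroma and at 0.453 to 2.58% for granulosa genes, and the heat shock share of plate 2 spans 0.00153 to 2.64%. Plates list different members, so heights are compared within a plate.

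Genes of the G2 and M phases of the cell cycle were read strongly in a part of the cells. Of 43 members, 9 were listed on plate 2 and 10 on plate 5. On plate 2 they held at least 0.7% of the counts in 10 of 32 cells, between 0.706 and 1.87%, and the next cell had 0.360%. All 9 members had reads in 7 cells, of which cell 7 was in cluster 0. On plate 5 the share was at least 0.7% in 3 of 19 cells and the highest was 1.17%, in cell 45 of cluster 0, and 4 cells had reads of all 10 members while 3 cells had reads of none. The threshold of 0.7% was chosen after the values were seen.

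Ccnb2, a B-type cyclin that drives entry into mitosis, showed this most plainly. It had no read in 19 of the 32 cells of plate 2 and reached 7274 CPM in cell 18, 5848 CPM in cell 29 and 4278 CPM in cell 28. On plate 5 it had reads in 8 of 19 cells, up to 1374 CPM. Ube2c, which helps to destroy cyclins at the end of mitosis, was read in 17 of 32 and 5 of 19 cells, up to 6470.4 and 1332 CPM. Kif20a, a motor protein of cell division, was read in 15 and 7 cells, up to 7013 and 1692 CPM. Hmgb2, a chromatin protein, was read more widely, in 28 of 32 cells of plate 2. The G1/S and replication list had only 3 of 30 members listed on plate 2 and 8 on plate 5, where Mcm2, of the replicative helicase, was read in 15 of 19 cells with a median of 815 CPM.

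**Figure D3:**
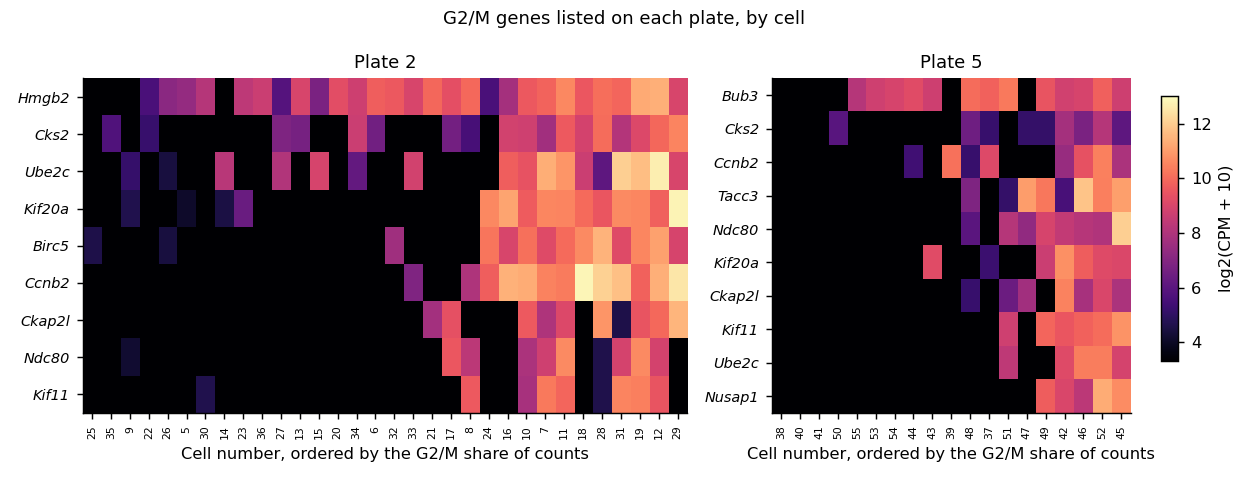
Level of each listed G2/M gene as log2(CPM + 10) in the cells of plates 2 and 5, ordered from the lowest to the highest G2/M share of counts. The bright columns at the right of plate 2 are the 10 cells at 0.706 to 1.87%, and the dark columns at the left of plate 5 include the 3 cells with no read of any member.

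Fibrillar collagens and collagen-binding proteoglycans of the stroma list were read mainly in cluster 0. Col1a2, a chain of type I collagen, at chr6:4504814-4541544, was at 5391 to 21682 CPM in the 5 cells of plate 2 and 1736 to 26253 CPM in the 3 of plate 5. Of the other cells, 6 of 27 on plate 2 had reads, up to 1081 CPM, and 0 of 16 on plate 5. Col3a1, type III collagen, was at 5813 to 19475 CPM in the 5 cells and at 0 to 1599.5 CPM in the 27. Bgn and Dcn, proteoglycans that bind collagen, had reads in all 5 of plate 2 and in none of the 27. Dcn was also read in the 3 of plate 5 and in none of the 16, as was Pdgfra, a receptor of mesenchymal cells. Sparc did not follow them, with 3166 to 15858 CPM in the 5 cells and 1039.9 to 14893 CPM in the 27. Other members were also read outside cluster 0. Col5a2, a chain of type V collagen, had reads in 8 of the 27 cells, up to 1747.5 CPM, and Lox, which crosslinks collagen, in 2 of the 27, up to 784.5 CPM, with 475.0 CPM as the highest of the 5. Mfap5 of the elastic microfibrils was read in 3 of the 27 and 1 of the 5, and Mgp, a matrix protein that binds calcium, in 3 of the 16 and 2 of the 3 on plate 5. On plate 1, where no cell is in cluster 0, Fbln1, a fibulin of the matrix, was read in all 5 cells at 199.8 to 2155 CPM.

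Cell 7 held genes of both kinds. It had 6.99% of its counts on stroma genes, 6582 CPM of Inha, 120.5 CPM of Foxl2, 5.24 CPM of Amh and no read of Inhbb. It also had the most genes of its plate, 2826, and a G2/M share of 0.917%. Whether its well held more than 1 cell was not tested.

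Markers of other cell types were at or near 0 in most cells. No member of the endothelial (8 and 10 listed on plates 2 and 5), immune (11 and 11), erythroid (6 and 6), smooth muscle (6 and 6) and oocyte (11 and 13) lists was read in 50% of the cells of either plate. Their highest shares in a cell were 0.158 and 0.0421% for endothelial, 0.0145 and 0.0326% for immune, 0.00620 and 0.00702% for erythroid, 1.73 and 0.112% for smooth muscle and 0.0666 and 0.00600% for oocyte genes. Per the paper, somatic cells that scored high for oocyte genes had been removed, so the low oocyte values were set in part beforehand. The smooth muscle value came from Acta2, which on plate 2 was read in the 5 cells of cluster 0 alone and reached 16480.4 CPM. Of the surface epithelium list, Krt8 was read in 16 of 32 and 5 of 19 cells and Aldh1a2 in 6 and 3. Upk3b of the same list was read in 1 of 32 and 0 of 19 cells, and the list held at most 0.163 and 0.222% of the counts of a cell.

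The most variable genes were ranked by the standard deviation over cells of log2(CPM + 10), which grows both where a gene differs between cells and where reads are missed. On plate 2, 1450 genes passed the minimum of 100 CPM pooled and reads in 25% of the cells, with a median standard deviation of 2.55, and on plate 5 1768 passed, with a median of 2.61. The genes of rank 30 and 31 stood at 3.34 and 3.33 on plate 2 and at 3.48 and 3.47 on plate 5, so nothing sets the 30 apart.

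On plate 2 the list was headed by Col3a1 (4.09), Col1a2 (3.96), Ccnb2 (3.82), Hspa1a (3.80), Itih5 and Nr4a1 (both 3.74), and it held Inha (3.69), Mmp2, a matrix protease, Adamts1, Hspa1b, Kif20a and Hsd3b1 (3.37). These belong to the stroma, cycle, stress and granulosa lists or, for Mmp2 and Adamts1, to the matrix. On plate 5 the first were Hsd3b1 (4.29), Inha (4.07), Dusp1 (3.91), Mamld1 (3.90), Lnpep (3.82), Pacs1 (3.81) and Abca2 (3.80), with Insr, the insulin receptor, at 3.74, Tgfbr1, a receptor of TGF beta, at 3.56 and Fosb at 3.51.

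Leaving out cluster 0 changed the head of both lists. Inha fell from 3.69 to 0.62 on plate 2 and from 4.07 to 0.54 on plate 5. On plate 2 Ccnb2 was then first (3.90), with Acsbg1, Aldh1b1, Hspa1a (3.65), Nr4a1 (3.48), Kif20a (3.47) and Birc5, an inhibitor of apoptosis with a role in mitosis, among the 30. On plate 5 Mamld1 was first, followed by Abca2, Wfs1, Lnpep and Insr, and Fosb and Dusp1 (both 3.46) stayed among the 30.

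The most variable genes of the plates were compared by their overlap. Over all cells, 662 genes were ranked on both, and 2 genes, Inha and Hsd3b1, were among the 30 of each, which is 6.67% of each list. Of the first 200 of each plate, 35 were shared. Without cluster 0 the counts were 0 of the 30 and 28 of the 200, of 657 genes ranked on both. Of the 30 without cluster 0, 19 of plate 2 and 10 of plate 5 were ranked on the other plate at all. The first 200 of each plate also held genes ranked on that plate alone, which could not be shared. The overlap expected by chance was not computed. Whether the plates share more or fewer of these genes than chance would give was therefore not tested, for the 30 or the 200.

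The profiles of single cells were moderately alike. The Spearman correlation of log2(CPM + 10) between cells of plate 2, over 2242 genes of at least 50 CPM, had a median of 0.33 over 496 pairs (0.15 to 0.47), and on plate 5 it was 0.29 over all pairs and 2784 genes (0.10 to 0.39). Cells of a plate share its preparation and its gene list, and the points within a pair share their depth. Without cluster 0 the medians were 0.33 and 0.29. No pair of cells held identical counts, and the closest pairs were cells 10 and 31 on plate 2 and cells 46 and 52 on plate 5, at 0.47 and 0.39.

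Pairs that joined a cell of cluster 0 with another cell had lower values. On plate 2 the median was 0.21 for such pairs, 0.42 among the 5 cells and 0.35 among the other 27, over the same genes. On plate 5 it was 0.19 for 48 such pairs, 0.29 for the 3 pairs within cluster 0 and 0.30 among the other 16. The values within cluster 0 depended on the genes used. Over genes of at least 50 CPM in those cells alone, the median among the 5 cells of plate 2 was 0.27 (2070 genes) and among the 3 cells of plate 5 it was -0.07 (1954 genes), with all 3 pairs below 0. Cell 7 had a median of 0.42 with the 4 other cells of cluster 0 and of 0.31 with the cells outside it. Outside cluster 0 the least alike were cell 6, with a median of 0.26 to its plate, and cell 50, with 0.25. Each is the deepest library of its plate, at 332717 and 116570 counts, and cell 6 had 955 genes with reads and 18.9% of its counts on mitochondrial genes. The part of depth in these values was not tested cell by cell, and with all cells thinned to 12000 counts the medians over pairs were 0.31 and 0.27.

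**Figure D4:**
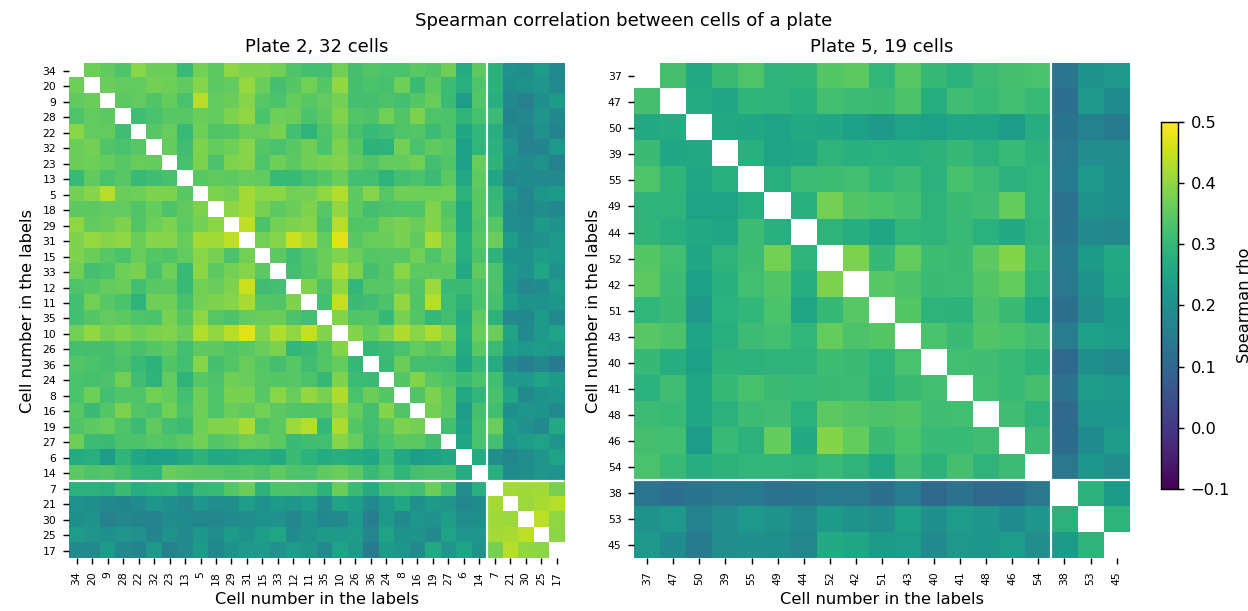
Spearman correlation of log2(CPM + 10) for every pair of cells of plates 2 and 5, with cells in order of falling granulosa share and the cells of cluster 0 set off by white lines at the end. The block of the 5 cells on plate 2 is bright, at 0.38 to 0.44, and the strips that join cluster 0 with the other cells are dark, at 0.15 to 0.36 on plate 2 and 0.10 to 0.27 on plate 5.

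Of the granulosa, immediate early, heat shock and G2/M lists, the G2/M genes had the highest median correlation within the list on both plates. Outside cluster 0 the median Spearman rho over the pairs of G2/M genes was 0.61 on plate 2 (27 cells, 36 pairs) and 0.59 on plate 5 (16 cells, 45 pairs), with every pair above 0. Over pairs of all genes that passed the same minimum the median was 0.03 and 0.00. Of 21 pairs that could be set side by side on both plates, 20 were above 0.3 on both. The tightest was Kif11 with Ndc80, a motor and a kinetochore protein of the mitotic spindle, at 0.95 and 0.86. Genes that are read in the same few cells give high values of this kind, and pairs share their genes and cells.

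The granulosa genes did not keep together once cluster 0 was left out. Their median rho fell from 0.20 to 0.05 on plate 2 and from 0.16 to 0.02 on plate 5, beside 0.03 and 0.00 for all genes. Of 120 pairs, 40 were above 0 on both plates and 1, Inhbb with Bex4, above 0.3 on both. The immediate early genes had medians of 0.11 and 0.07, with 16 of 45 pairs above 0 on both plates and Jun with Jund above 0.3 on both, at 0.39 and 0.61. Among 10 pairs of heat shock genes, 3 were above 0 on both plates and only Hspa1a with Hspa1b was above 0.3 on both. For scale, ribosomal protein genes had medians of 0.46 and 0.32 and mitochondrial genes of 0.35 and 0.22.

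**Figure D5:**
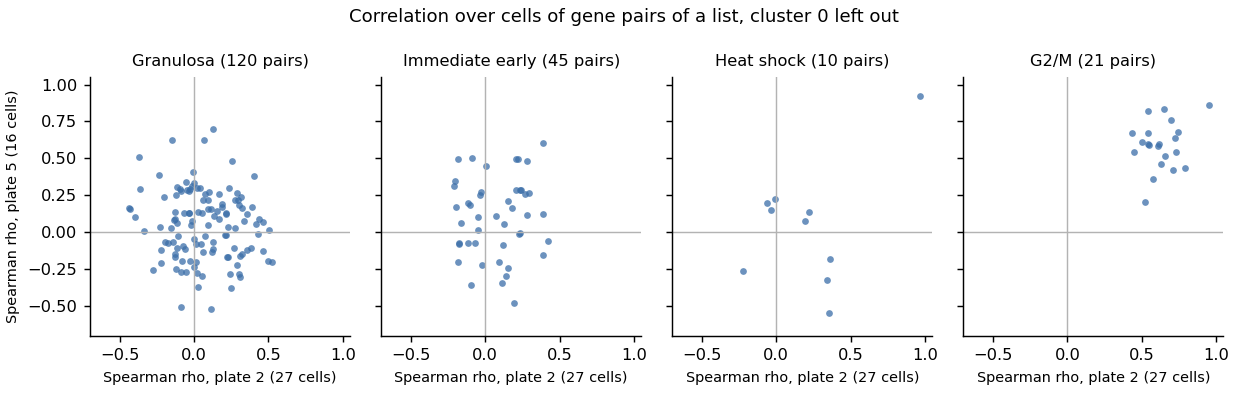
Spearman rho over cells for each pair of genes of 4 lists, on plate 2 (27 cells, horizontal) and plate 5 (16 cells, vertical), with cluster 0 left out. All 21 G2/M pairs lie at the upper right, above 0 on both axes, the single heat shock point at the corner is Hspa1a with Hspa1b, and granulosa and immediate early pairs spread around 0.

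List scores, the mean log2(CPM + 10) of the members, were set against each other with and without cluster 0. Granulosa and stroma scores had rho -0.38 on plate 2 (32 cells) and -0.46 on plate 5 (19 cells), and -0.04 and 0.00 without cluster 0. Granulosa and immediate early scores had rho -0.09 and -0.48, and 0.39 (27 cells) and -0.12 (16 cells) without it. Granulosa and heat shock scores had 0.39 and 0.35, and 0.46 and 0.11 without it. Immediate early and mitochondrial scores had -0.03 on plate 2 and -0.61 on plate 5, where the mitochondrial score had rho 0.55 with the log total count and the immediate early score -0.33. With cluster 0 left out the value on plate 5 was -0.35. None of these relations had one sign and a size above 0.2 on both plates without cluster 0. Granulosa and ribosomal scores had rho 0.30 and 0.49 over all cells, and 0.26 and 0.23 without cluster 0. The Pearson values of that pair differed in sign, at -0.19 and 0.18 without cluster 0. G2/M and G1/S scores had 0.35 and 0.34 without it, over 9 and 3 genes on plate 2 and 10 and 8 on plate 5, and 0.30 and 0.42 over all cells.

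Genes most like single genes were found by rho over cells and set beside the other plate. Ccnb2 was closest on plate 2 to Pttg1, which encodes securin, a protein of mitosis, at 0.84, Birc5 at 0.82 and Kif20a at 0.81, out of 1449 genes and over 32 cells. On plate 5, Kif20a was at 0.51, Cks2 at 0.60 and Ube2c at 0.57 with Ccnb2, and Pttg1 and Birc5 could not be compared there. Without cluster 0 the first 3 had 0.87, 0.83 and 0.79 on plate 2.

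Amh on plate 5 was closest to Carhsp1, a gene of an RNA-binding cold shock protein, at 0.92 over 19 cells and 0.89 without cluster 0. The same pair had 0.18 on plate 2 over all cells and 0.01 without cluster 0, and 0.24 in the secondary somatic cells of plate 5. Inha on plate 2 was closest to Hsd3b1, at 0.70 (0.53 on plate 5), and without cluster 0 to Itih5, at 0.72 (0.13 on plate 5). Jun was closest on plate 2 to Clu, which encodes a secreted chaperone, at 0.70, and on plate 5 it had 0.72 with Dusp1, 0.70 with Mcl1 and 0.62 with Ier2. Col1a2 had 0.66 on plate 2 and 0.88 on plate 5 with Igfbp4, a binding protein of insulin-like growth factors, and the zeros of both genes outside cluster 0 enter these values. Without cluster 0, Inha with Hsd3b1 had 0.50 on plate 2 and 0.23 on plate 5, and Col1a2 with Igfbp4 had 0.27 on plate 2, with no read of Col1a2 on plate 5. The highest of 1449 genes is high by selection.

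Levels on plate 5 were set against those on plate 2 to show how far they depend on the plate. For this, CPM was taken over the 14216 genes listed on both, which hold 71.5% of the counts of plate 2 and 50.8% of those of plate 5. Of the 2328 genes with at least 50 CPM on either plate, 58.3% differed by a log2 ratio past 1 in size, 35.7% higher and 22.6% lower on plate 5. The median log2 ratio of all genes was 0.35, with 831 genes called higher. TMM factors, median-of-ratios factors and totals over each plate's own genes moved the median down by 0.36 to 0.49 and the higher calls to between 638 and 691 of 2328. The mean CPM of single cells shifted the median by -0.09 and gave 828 higher calls of 2375. With 1 pooled sample on a side, the plate, its depth and the follicles it was filled from cannot be told apart.

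Against that background, 8 of 20 granulosa members were higher and 2 lower on plate 5, with a median log2 ratio of 0.73. Over all genes 35.7% were higher and 22.6% lower, with a median of 0.35. The ratios of the granulosa members spread widely, with a standard deviation of 2.08. Amh had a log2 ratio of 4.05 (3.92 to 4.17), from 286 to 4719.8 CPM on this scale, and 3.55 with totals over all genes of each plate. Foxl2 had 2.25 (2.05 to 2.46), and Hsd17b1, of estradiol synthesis, 1.93. Inha had 0.59, and 0.10 with the totals of each plate. Of 7 G2/M members 0 were higher and 3 lower, of 14 immediate early members 1 was higher and 5 were lower, and of 5 heat shock members 0 were past the threshold in either direction, with a median of -0.47. Hspa1a stood at -0.66, and between -1.02 and -1.40 under 4 other scalings. Jun was at -0.14 (-0.19 to -0.10). Mitochondrial genes (0 higher and 7 lower of 12) and ribosomal protein genes (0 higher and 7 lower of 8) were the most one-sided lists. Without cluster 0, 59.3% of 2196 genes were past the threshold, 36.5% higher and 22.8% lower. The granulosa counts were then again 8 and 2 of 20, and of 12 immediate early members 1 was higher and 3 were lower.

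The genes with the largest ratios rest on few counts on one side. Dynap, at 10.01 (7.51 to 15.32), and Plscr4, at 9.96, each had 1 count on plate 2, against 411 and 399 CPM on plate 5 on this scale. Ihh, at 6.96 (6.01 to 8.11), had 9 counts on plate 2.

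On plate 5 the primary cells can be seen beside somatic cells of other stages on the same plate, here without cluster 0. Per the labels, Accutase acted for 5 min on primordial follicles and for 10 min on those of the later stages shown here, and each stage had a pipette of its own width, so stage and dissociation cannot be told apart. The methods of the paper also give 10 min for primary follicles, while a figure legend gives 5 min. Inha had a median of 6029 CPM in 16 primordial cells (263 to 16531), 18988 CPM in the 16 primary cells (10002 to 29347) and 16607 CPM in 24 secondary cells (5557 to 25877). Amh had 108.1 CPM (0 to 1571), 2695 CPM (255 to 8519.7) and 1513 CPM (547 to 4219). The primary cells thus lay above most primordial cells for both genes, and overlapped with secondary cells over most of the range. Inhbb had medians of 0, 556 and 568 CPM with reads in 4 of 16, 11 of 16 and 20 of 24 cells, and Hsd3b1 of 508, 5426 and 6641 CPM.

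The granulosa list held 1.66% of the counts in the median primordial cell, 3.97% in the primary and 3.86% in the secondary cell. The immediate early share had medians of 2.42, 1.43 and 1.02%, and its ranges overlapped, at 0.182 to 3.88, 0.128 to 2.77 and 0.433 to 1.97%. The G2/M share had medians of 0.235, 0.122 and 0.251% with a highest value of 1.01% in the primary cells. Oocyte genes held 0.254% in the median primordial cell, 0 in the primary and 0.0166% in the secondary cell, and the highest primary cell had 0.00600%. The authors' removal of somatic cells with high oocyte scores limits these oocyte values. Thinned to 12000 counts, the median correlation between cells of a stage was 0.30, 0.31 and 0.32. Each stage counts as 1 sample, so these differences were not tested.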

How the data were processed

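SMART-Seq2 libraries of single mouse cells were analysed, 56 of them somatic cells of primary follicles. Per the paper, the authors aligned reads to GRCm38, worked in Seurat v4 and removed cells of under 500 genes. By module scores they also removed oocytes high in somatic genes and somatic cells high in oocyte genes. The table deposited by the authors holds an expected count (estimated count) per gene and cell from the aligned reads, not normalized, of which 17.2% above 0 are not whole. The deposited metadata give plate, cluster, the total read count, fractions of reads (rRNA, aligned), and module scores, which the authors computed and which were not used as results. Of 25149 rows, 27 with dates for names were left out (0.0743% of counts).

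The members, lists and tests were chosen with earlier results of these data known. Named genes are list members, the 20 most expressed and 30 most variable genes of plates 2 and 5, the 10 genes most correlated with chosen seeds, and the extremes of the plate comparison. Of the seeds, Top2a is not listed on these plates. CPM was taken over all named genes of a plate, with a pseudocount of 10 in logs. Correlations between cells used genes of at least 50 CPM. Pooled levels carry exact Poisson intervals. Neither the labels nor the paper tie cells to animals, so no test was run. Doublets were not called, since cells were picked by hand. Alternatives were TMM (edgeR 4.0.16) and median-of-ratios (DESeq2 1.42.0) factors, thinning to 12000 counts, other minimums and pseudocounts, and, added after the data were seen, cluster 0 left out, other totals and levels per kb (GENCODE M21, 71.3% of symbols matched). Calculations were checked on simulated counts, in Python 3.11.15 and R 4.3.3.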

Additional observations from a re-analysis of the deposited data

Results flagged for a closer look

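Among the 5 primary cells of plate 1, cell 4 lay far above the others in 2 measures. G2/M genes made up 1.77% of its counts, and the next highest of the 5 cells had 0.184%. Oocyte genes made up 0.839% of its counts, and the next had 0.122%. The gap to the next cell exceeded the critical share of the range for 5 values in both. For normally distributed values, chance passes this limit in about 1 in 20 groups for 1 measure. Whether these shares follow that distribution was not tested, so the rate may not hold here. In all, 14 measures of these cells were screened, and the cells of a plate are not replicates. Cell 4 also had the most genes with reads of the 5, 4167, and granulosa markers in its reads, with Inha at 6519 CPM and Amh at 466 CPM. Plates 2 and 5 hold too many cells for this comparison.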

How the results depend on the processing

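No paired analysis was possible because the replicate number in a title names a single cell. Of the alternative values for 44 results, 21 moved, 4 passed the ratio threshold where the main value did not, and the others stayed within the limits set. Of the 20 most expressed genes, 13 on plate 2 and 9 on plate 5 stayed with totals over the genes listed on every plate, and 11 on plate 5 per kb. Of the 30 most variable genes, 10 and 3 stayed when the coefficient of variation relative to genes of like level was used, and 18 on plate 2 without cluster 0. Without a minimum level, the median correlation between cells was 0.404 on plate 2 and 0.349 on plate 5, and 4098 of 6102 genes passed the ratio between plates. Granulosa with stroma scores had Pearson values of -0.76 and -0.91, rho -0.042 and 0.0019 without cluster 0, and -0.21 on plate 5 without the 2 cells farthest from the median. Granulosa with immediate early scores had rho 0.39 on plate 2 and -0.12 on plate 5 without cluster 0, and -0.27 on plate 5 without the 2 cells. Granulosa with heat shock scores had 0.11 and 0.12 on plate 5 in the same order. The ratio of Hspa1a between plates, -0.66, passed the threshold under TMM (-1.06) and median-of-ratios factors (-1.02), mean CPM (-1.40) and own totals (-1.16). Causes were not tested. Depth limits genes at single reads, since 3 counts are 583 CPM in the shallowest cell.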

Other observations

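Targets and receptors of the Notch and BMP pathways, which pass signals between oocyte and granulosa cells, were listed in part. On plate 2, 11 of 18 were listed and 9 had reads. Bmpr2, a BMP receptor, was read in 30 of 32 cells with a median of 542 CPM, and the Notch targets Heyl and Hes1 in 24 of 32 cells each, at pooled levels of 520.3 and 128.9 CPM. Id1, a target of BMP signals, was read in all 5 cells of cluster 0 and in 11 of the other 27. On plate 5, Hey2 was read in 11 of 19 cells at 246 CPM.

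Genes of the unfolded protein response were carried by Hspa5 on plate 5, at 1085 to 12228 CPM in all 19 cells. Creld2 and Sdf2l1, of the same response, were read on both plates, with Creld2 at 349.9 and 350.3 CPM pooled, in 23 of 32 and 13 of 19 cells. Cdkn1b, an inhibitor of the cell cycle, was read in 24 of 32 cells of plate 2 with a median of 244.3 CPM. The apoptosis list held at most 0.114% of the counts of a cell on plate 2 and 0.220% on plate 5.

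The cell metadata give cell 56 of plate 1 the secondary stage, while its title says primary. The title was followed. The cell had Inha at 16769.8 CPM, the highest of the 5, Amh at 121.6 CPM and Inhbb at 884 CPM.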
